A study of Rattus norvegicus with 18 samples.

Results

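The miRNAs described here come from 6 precursors, miR-770, miR-493, miR-337, miR-540, miR-370 and miR-341, which are encoded in or near the long non-coding RNAs Meg3 and Rian in the imprinted Dlk1-Dio3 locus of the rat. All rows of the deposited count table for either arm of these precursors were taken, which gave 11 of 753 listed miRNAs. Of these 11, 10 passed the detection filter, which asked for over 10 counts in 6 or more of 18 libraries, as did 373 miRNAs in all. rno-miR-337-5p, the remaining one, was listed at 0 in all 18 libraries. The precursors were chosen by earlier results of the same group comparisons, in which rno-miR-770-5p and rno-miR-370-3p stood out, so the values by group are given as a description and none of their tests is read as a finding.

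The small RNA came from dorsal root ganglia (DRG), which hold the cell bodies of sensory neurons and their glia, at cervical levels 6 to 8 of adult Lister hooded rats. Naive rats had neither surgery nor injection. The bPYX+GFP and bPYX+NT3 rats shared a cut of the corticospinal tracts on both sides, at the medullary pyramids (bPYX), and a unilateral injection of forelimb flexor muscles with an adeno-associated viral vector (AAV1) driven by the CMV promoter, carrying green fluorescent protein or human neurotrophin-3, respectively, and their ganglia were taken 10 weeks after injury. Each group had 6 rats, and each rat gave 1 library from the pooled ganglia of the treated side. No group had injury without vector or vector without injury, so these cannot be told apart in a comparison with naive rats. In such whole ganglia, fewer cells of a type and less RNA per cell cannot be told apart either.

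The Dlk1-Dio3 locus is imprinted, which means that the parental origin of a chromosome decides which of its genes are expressed. Meg3, Rian and the many miRNAs and small nucleolar RNAs around them are made from the maternal chromosome, whereas the protein-coding genes Dlk1, Rtl1 and Dio3 are made from the paternal one. The maternal RNAs are thought to arise largely from long shared transcripts, and many of the miRNAs are abundant in neurons. A miRNA is cut from a hairpin precursor, either side of which (the 5p and the 3p arm) can yield a mature strand. The mature strand pairs with messenger RNAs mainly through its seed, bases 2 to 8 from the 5′ end, and lowers their translation or stability.

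The deposited counts rest on an older build, and RefSeq's GRCr8 served here for names, neighbours and sequences only. There the order on chromosome 6 was Meg3, Mir770, Mir673, Mir493, Mir337, Mir540, Mir665, Rtl1, Mir341, Mir1188, Mir370 and, further on, Mir379, the first gene of a large miRNA cluster. Mir770 lay within the span of Meg3. Mir370 lay within an uncharacterized gene, LOC102555254, that also spanned snoRNA genes and Mir379. The other 4 precursor genes lay in no other annotated gene. The mature sequences were matched by name in RefSeq for 11 of 11 members and are shown 5′ to 3′ with the seed in capitals, because the seed decides which messenger RNAs a strand can pair with.

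rno-miR-770-5p: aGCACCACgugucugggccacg
rno-miR-770-3p: gUGGGCCUgacguggag
rno-miR-493-5p: uUGUACAUgguaggcuuucauu
rno-miR-493-3p: uGAAGGUCuacugugugccag
rno-miR-337-5p: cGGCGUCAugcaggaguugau
rno-miR-337-3p: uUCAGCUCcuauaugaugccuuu
rno-miR-540-5p: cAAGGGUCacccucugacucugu
rno-miR-540-3p: aGGUCAGAggucgauccugggc
rno-miR-370-5p: cAGGUCACgucucugcaguuacac
rno-miR-370-3p: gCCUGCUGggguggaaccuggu
rno-miR-341: uCGGUCGAucggucggucggu

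No seed occurred in more than 1 member, so neighbours in the locus would not be grouped as a seed family. The only other tabled miRNA with a member's seed was miR-1193-3p, at a mean of 34.0 CPM (counts per M miRNA counts), which shares the seed of miR-370-5p and also belongs to the locus. The G and C content ran from 36.4% in miR-493-5p to 70.6% in miR-770-3p, which at 17 bases was also the shortest. The sequence of miR-341 contained the letters CGGU 4 times. The hairpins of miR-770, miR-493 and miR-370, whose arms are compared with each other further on, are given with both mature strands in capitals, the 5p arm first.

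Mir770: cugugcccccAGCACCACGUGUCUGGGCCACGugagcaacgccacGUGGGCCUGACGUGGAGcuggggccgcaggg
Mir493: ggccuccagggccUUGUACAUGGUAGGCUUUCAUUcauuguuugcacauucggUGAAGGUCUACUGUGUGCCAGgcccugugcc
Mir370: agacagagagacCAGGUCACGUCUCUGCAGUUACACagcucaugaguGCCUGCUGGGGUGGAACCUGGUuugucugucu

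The libraries held 3.88 to 6.92 M counts of miRNAs. Naive replicate 1 was left out by the study as an outlier in its quality plots and was kept here. Of the markers used to check the tissue, miR-182 and miR-96-5p of the sensory neuron cluster were abundant, while miR-183-5p was listed at 0. The list summed to 27223 CPM in naive rats (23643 to 31011), to 30758 CPM in bPYX+GFP rats (28968 to 33103) and to 30357 CPM in bPYX+NT3 rats (25920 to 32958). Within it, miR-182 had a log2 fold change of 0.20 ± 0.08 for bPYX+GFP and 0.19 ± 0.09 for bPYX+NT3 against naive (SE), with 6 and 5 of 6 libraries above the naive mean, while miR-96-5p was at 4255, 4452 and 4142 CPM in naive, bPYX+GFP and bPYX+NT3 rats. The list of general neuron markers, with miR-124-3p and miR-9a-5p near 0 and nearly all counts from miR-128-3p, had means of 8739 CPM (7201 to 10084) among naive, 8134 CPM (7409 to 8846) among bPYX+GFP and 7559 CPM (5099 to 9713) among bPYX+NT3 rats. The glial markers summed to at most 1.53 CPM, and miR-338-3p among them was listed at 0. miR-1-3p and miR-133a-3p of muscle were listed at 0 as well, so the lists check the tissue only in part. The 3 tabled of 4 blood markers had summed levels from 234 to 658 CPM among naive rats, from 322 to 868 CPM among bPYX+GFP rats and from 389 to 1224 CPM among bPYX+NT3 rats. The muscle list, of which miR-206-3p alone had counts, ranged from 65.8 to 144 CPM, from 41.5 to 297 CPM and from 46.1 to 213 CPM in the same order. The ranges of all these lists overlapped between the groups, and the part of these cells in any result was not tested.

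The members together took 0.530 ± 0.056% of miRNA counts in naive rats, 0.461 ± 0.019% of them in bPYX+GFP rats and 0.483 ± 0.035% of them in bPYX+NT3 rats (SD, n = 6 per group). Levels of single miRNAs are given as CPM, counts per M miRNA counts after TMM scaling of all 18 libraries. miR-370-3p and miR-341 made up most of the total, at means of 1644 and 1433 CPM over the 18 rats, which ranked 46 and 51 among the 373 tested miRNAs. They were followed by miR-493-3p at 804 CPM, miR-493-5p at 644 CPM, miR-770-3p at 268 CPM and miR-540-3p at 69.2 CPM. miR-770-5p, at 30.2 CPM, and miR-370-5p, at 26.5 CPM, ranked 236 and 243. miR-337-3p at 5.80 CPM and miR-540-5p at 2.64 CPM were near the detection limit, and miR-540-5p had more than 10 counts in 10 of 18 libraries. In this order the ranges over all rats overlapped between miR-370-3p and miR-341, between both arms of miR-493, between miR-540-3p and miR-770-5p, between miR-770-5p and miR-370-5p, and between miR-337-3p and miR-540-5p. Reads of different miRNAs are not captured equally well by small RNA libraries, so this is an order of reads.

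miR-370-3p was the member with the clearest separation between groups. Its level was lowest at 1704, median 1900 and highest at 2340 CPM in naive rats, at 1265, 1513 and 1688 CPM in bPYX+GFP rats, and at 1146, 1556 and 1773 CPM in bPYX+NT3 rats. Every bPYX+GFP library thus lay below every naive library, whereas the bPYX+NT3 libraries overlapped with the naive ones only at the top of their range. The means were 1940 ± 252, 1508 ± 146 and 1484 ± 244 CPM (SD, n = 6 per group). The log2 fold change was -0.36 ± 0.09 in bPYX+GFP and -0.39 ± 0.11 in bPYX+NT3 against naive rats (SE), with all 6 injured libraries of each group below the naive mean. Between bPYX+NT3 and bPYX+GFP rats it was -0.01 ± 0.10. Without naive replicate 1 the values against naive were -0.38 and -0.41.

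For the other arm of the same hairpin, miR-370-5p, the log2 fold change was -0.11 ± 0.12 for bPYX+GFP and 0.04 ± 0.13 for bPYX+NT3 against naive (SE), and whether the arms differed in this was not tested. Its level was 26.9 ± 4.22 CPM in naive, 24.9 ± 3.17 CPM in bPYX+GFP and 27.7 ± 4.05 CPM in bPYX+NT3 rats (SD, n = 6 per group). All 3 groups overlapped, and the rats of all groups together ranged from 19.4 to 34.7 CPM.

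miR-770-5p, from the hairpin inside Meg3, was higher in the injured rats. Its lowest, median and highest levels were 15.7, 20.5 and 28.0 CPM in naive, 21.4, 30.4 and 68.2 CPM in bPYX+GFP, and 22.6, 31.2 and 44.9 CPM in bPYX+NT3 rats. The groups overlapped, but all 6 libraries of either injured group lay at or above the naive mean of 21.4 ± 4.69 CPM. The bPYX+GFP mean of 36.4 ± 16.9 CPM was set in part by replicate 3, at 68.2 CPM against 21.4 to 41.3 CPM in the other rats of that group. This library was also the deepest, with 6.92 M miRNA counts against 4.37 to 4.66 M in the rest of the group. After removing group means, miR-770-5p had a Pearson r of 0.50 with the miRNA counts of the library over the 18 rats. The part of depth was not tested. The log2 fold change against naive was 0.77 ± 0.24 for bPYX+GFP and 0.62 ± 0.18 for bPYX+NT3 (SE). Without bPYX+GFP replicate 3 the former was 0.50, and without naive replicate 1 the values were 0.70 and 0.55. bPYX+NT3 differed from bPYX+GFP by -0.13 ± 0.25, and by 0.13 without bPYX+GFP replicate 3, so this difference had no stable sign.

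Its partner arm miR-770-3p, the more abundant of the pair, was at the same level in all 3 groups within the spread between rats. The means were 266 ± 48.7 CPM in naive, 275 ± 32.0 CPM in bPYX+GFP and 263 ± 33.5 CPM in bPYX+NT3 rats. The log2 fold change was 0.04 ± 0.12 for bPYX+GFP and -0.02 ± 0.12 for bPYX+NT3 against naive rats (SE).

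miR-341, a rodent miRNA of which the table lists only 1 strand, was lower in bPYX+GFP rats than in the other groups by their means. Its lowest, median and highest levels were 1164, 1581 and 1702 CPM in naive, 1167, 1276 and 1456 CPM in bPYX+GFP, and 1313, 1483 and 1640 CPM in bPYX+NT3 rats. The naive range spanned all values of the other groups. The means were 1506 ± 205, 1305 ± 107 and 1487 ± 112 CPM. The log2 fold change was -0.21 ± 0.09 for bPYX+GFP and -0.02 ± 0.09 for bPYX+NT3 against naive, and 0.20 ± 0.08 for bPYX+NT3 against bPYX+GFP (SE). Without naive replicate 1 the values against naive were -0.17 and 0.02.

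Both arms of miR-493 were of similar abundance, and the 3p arm was the more variable. miR-493-3p was at 753, 904 and 1115 CPM in naive, at 696, 799 and 887 CPM in bPYX+GFP and at 452, 709 and 975 CPM in bPYX+NT3 rats (lowest, median and highest). The bPYX+NT3 libraries thus spread beyond the bPYX+GFP range on both sides, and the coefficient of variation was 27.4% in this group against 8.6% in bPYX+GFP rats. The log2 fold change was -0.19 ± 0.09 for bPYX+GFP and -0.35 ± 0.16 for bPYX+NT3 against naive (SE). The latter was -0.25 without bPYX+NT3 replicate 3, the library with the lowest level, and -0.39 without naive replicate 1. miR-493-5p was at 672 ± 83.3, 615 ± 33.5 and 644 ± 44.2 CPM in the 3 groups, and its 3 fold changes lay between -0.13 and 0.08 on the log2 scale.

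The remaining members were scarce or varied little by group. miR-540-3p was at 71.1 ± 9.03 CPM in naive, 70.7 ± 6.68 CPM in bPYX+GFP and 65.8 ± 11.1 CPM in bPYX+NT3 rats. miR-337-3p had 12 to 57 counts per library and was at 4.78 ± 1.35, 5.30 ± 0.91 and 7.33 ± 2.54 CPM, with a log2 fold change of 0.62 ± 0.24 for bPYX+NT3 against naive that was 0.42 without bPYX+NT3 replicate 3. miR-540-5p had 3 to 30 counts per library, and its means of 2.14, 2.77 and 3.00 CPM had SDs between 0.82 and 1.79 CPM.

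**Figure D1:**
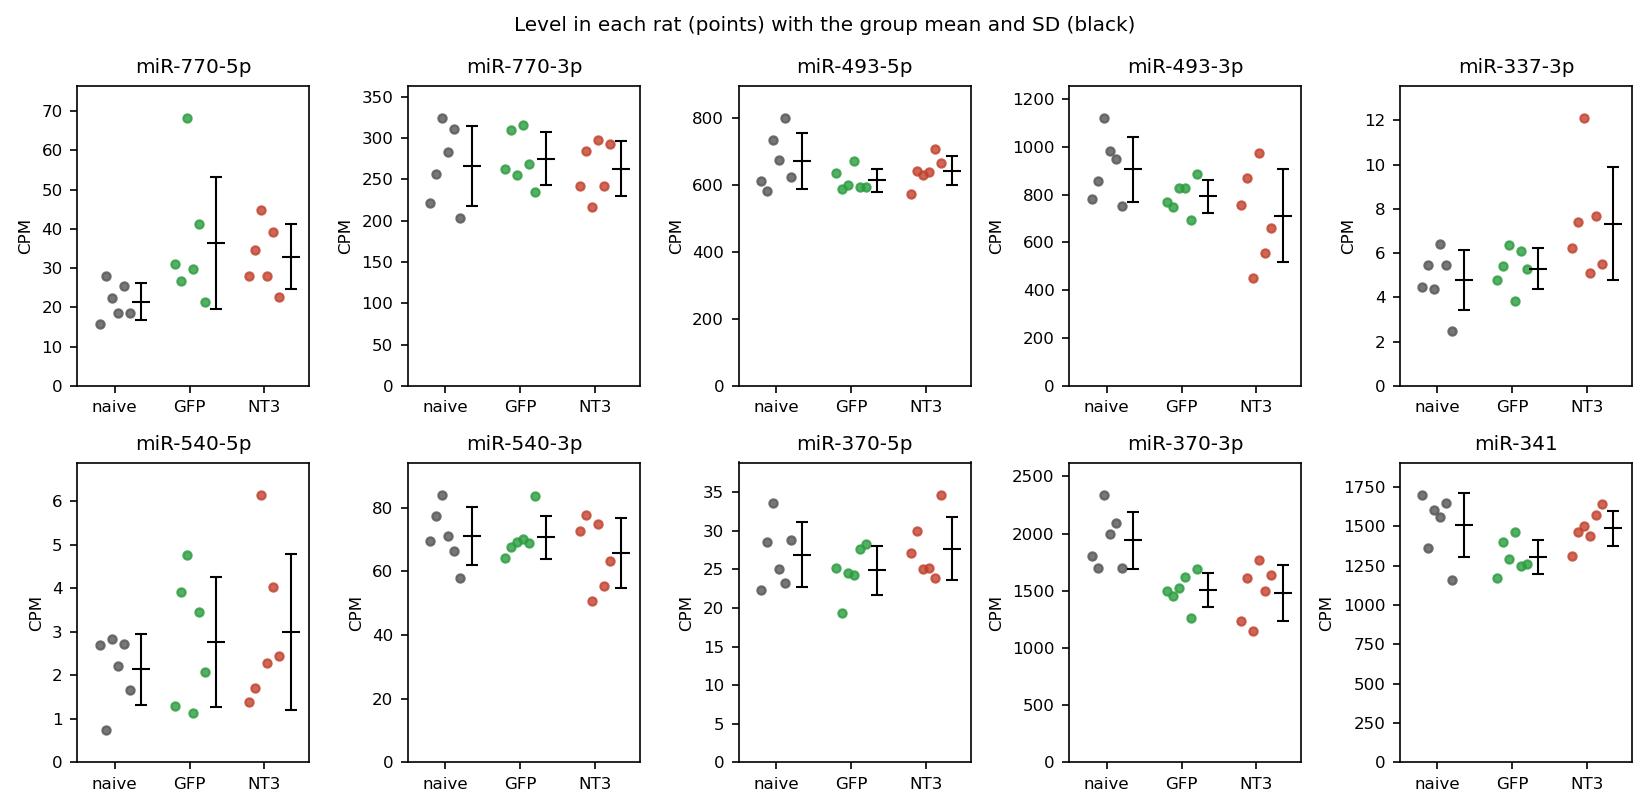
Level (CPM, y axis) of the 10 miRNAs above the detection filter in each rat (points, 6 per group) with the mean and SD of the group in black; GFP and NT3 stand for bPYX+GFP and bPYX+NT3. For miR-370-3p every bPYX+GFP point lies below every naive point, and for miR-770-5p bPYX+GFP replicate 3, at 68.2 CPM, stands above all others.

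The counts of members past a threshold were read only against those of all miRNAs tested, since the members had been chosen by these contrasts. In bPYX+GFP against naive rats, 3 of 10 members had an unadjusted p under 0.05 by the quasi-likelihood test of edgeR. The threshold is the study's, whereas its table lists likelihood ratios, and the likelihood ratio test gave the same counts of 3, 4 and 1 members in the 3 comparisons, beside 61, 42 and 30 of all 373 miRNAs. The 3 members were miR-370-3p and miR-341, lower, and miR-770-5p, higher, and 21.2% of all miRNAs tested passed this threshold. miR-341 did not pass it in 10 of 20 alternatives, among them the fit without naive replicate 1. At an adjusted p under 0.05 there was 1 member, miR-370-3p, beside 2.41% of all miRNAs, and the same member was the only one whose groups did not overlap, beside 4.02% of all miRNAs. The adjusted call was made without naive replicate 2 or 6 or without bPYX+GFP replicate 6, and not when any other single library of the 12 was left out.

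In bPYX+NT3 against naive rats 4 members passed the unadjusted threshold, miR-770-5p and miR-337-3p with higher and miR-370-3p and miR-493-3p with lower levels, beside 13.7% of all miRNAs. No member passed at an adjusted p under 0.05 by edgeR's quasi-likelihood test, nor did any other miRNA (0%). The likelihood ratio test, the DESeq2 Wald test, the fit of 3 groups together and the fit without bPYX+NT3 replicate 1 each called 1 miRNA, and the fit without bPYX+NT3 replicate 4 called 4, of which 0 were members. No member's groups were separated, beside 1.34% of all miRNAs. In bPYX+NT3 against bPYX+GFP rats miR-341 alone passed the unadjusted threshold, with a higher level, beside 8.58% of all miRNAs. By edgeR and by DESeq2 0 miRNAs had an adjusted p under 0.05 there, beside 32 and 33 at an unadjusted p, and 0 had groups without overlap. Both comparisons with naive rats share the naive libraries. The median log2 fold change of the 10 members was -0.06, -0.02 and 0.03 in the 3 comparisons in the order given, beside 0.00, -0.01 and 0.00 over all 373 miRNAs.

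**Figure D2:**
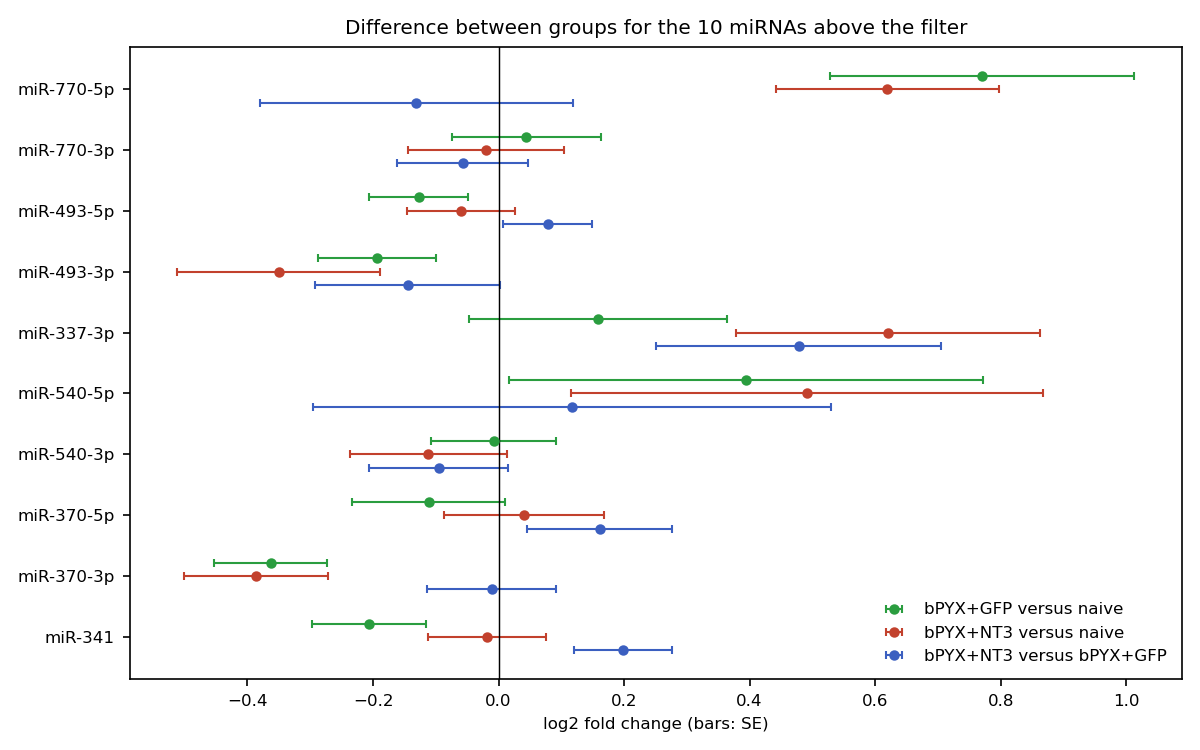
Log2 fold change (x axis, bars show the SE) of the 10 miRNAs above the filter in the 3 comparisons of 6 with 6 rats. miR-370-3p lies at -0.36 and -0.39 and miR-770-5p at 0.77 and 0.62 against naive, while their partner arms miR-370-5p and miR-770-3p lie between -0.11 and 0.16 in all 3 comparisons.

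Which arm of a hairpin gave more reads was compared within each rat, which needs no scaling between libraries. As said above, miRNAs are not captured equally well, so the ratios and their tests concern reads. The choice of precursors used contrasts between groups and not this ratio, although the ratio contains counts of arms that stood out in those contrasts. For miR-770, the 5p arm took 10.2 ± 3.97% of the reads of both arms (SD, n = 18), from 6.12 to 21.1%, and the 3p arm had more reads in 18 of 18 rats. The mean log2 ratio of 5p to 3p counts was -3.22 ± 0.56, which differed from 0 by a two-sided sign-flip permutation test (p = 2e-05, or 4e-05 adjusted over miR-770 and miR-493). For miR-493 the arms were closer, with 44.9 ± 5.24% of reads from the 5p arm, from 39.6 to 58.3%. The mean log2 ratio was -0.30 ± 0.31 (permutation p = 0.00151, p = 0.00151 adjusted over the same pair), and the 3p arm had more reads in 15 of 18 rats. All 3 exceptions were bPYX+NT3 rats, replicates 3, 5 and 6, at 58.3, 56.0 and 50.3%, so that in this group the 3p arm led in 3 of 6 rats.

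Neither miR-540 nor miR-370 was part of that family of tests, and both gave nearly all reads from the 3p arm. The 5p arm took 3.81 ± 2.38% of reads for miR-540, from 0.949 to 10.8%, and 1.63 ± 0.33% for miR-370, from 1.09 to 2.15% (SD, n = 18). The member named above for miR-770, the 5p arm, is thus the minor arm of its hairpin by reads. The one named for miR-370, the 3p arm, is the major arm by reads.

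For miR-337 the 5p arm had 0 counts in all rats, which allows up to 3 counts per library beside the 12 to 57 counts of the 3p arm, so the ratio was set by the pseudocount, its test was void and it was left out of the adjustment (with it, the adjusted permutation p of miR-770 was 3e-05). miR-337-5p overlaps a miRNA on the opposite strand, miR-3544, which was also listed at 0 throughout. Such zeros were common in the table. Of 94 listed mature miRNAs that overlap another on the opposite strand in GRCr8, 82 had no count in any of the 18 libraries, against 81 of 594 without such an overlap. The markers miR-183-5p, miR-338-3p, miR-1-3p and miR-133a-3p are among the former. Whether the counting gave rise to the 0 of miR-337-5p was not tested.

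By group, the 5p share of miR-770 was 7.51 ± 1.42% for naive rats, 11.6 ± 5.04% for bPYX+GFP rats and 11.3 ± 3.67% for bPYX+NT3 rats. In the same order, for miR-370 it was 1.38 ± 0.23%, 1.64 ± 0.28% and 1.86 ± 0.32%, for miR-493 42.6 ± 2.65%, 43.7 ± 2.25% and 48.3 ± 7.73%, and for miR-540 2.95 ± 1.07%, 3.78 ± 2.04% and 4.72 ± 3.47% (SD, n = 6 per group). The naive mean was the lowest in each of the 4 precursors, and the groups overlapped in each. These shares contain the counts by which the precursors were chosen and were not tested between groups.

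**Figure D3:**
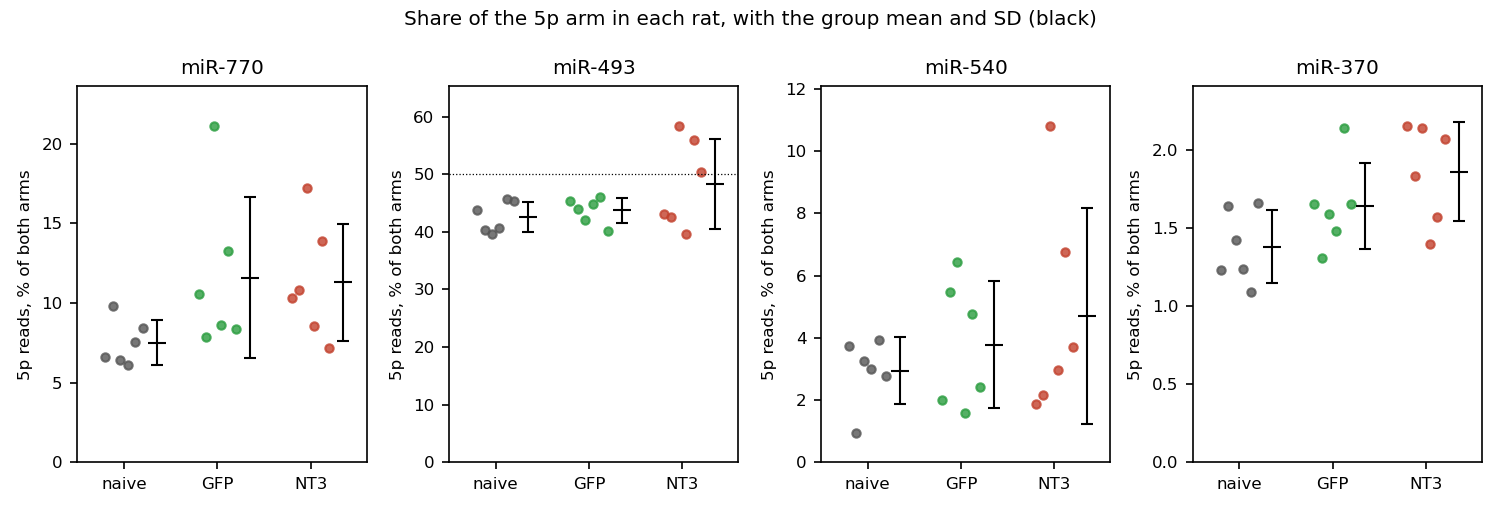
Share of reads from the 5p arm (percent of the reads of both arms, y axis) in each rat for the 4 precursors with both arms above the filter, with the mean and SD of each group in black; the dotted line marks 50%. Only 3 bPYX+NT3 rats lie above 50% for miR-493, and bPYX+GFP replicate 3 has the highest share for miR-770, 21.1%.

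Whether the miRNAs varied together from rat to rat was asked after removing the mean of each group, so that differences between groups did not enter. Correlations of log2 CPM were computed over the 18 rats for the 15 pairs among the most abundant arms of the 6 precursors and for the 3 pairs of arms of miR-770, miR-493 and miR-337, and 17 of these 18 pairs had a value. The pairs of arms of miR-540 and miR-370 were not in this family. Of these 17, 4 had a Benjamini-Hochberg adjusted permutation p under 0.05, and all 4 were positive. How many pairs of other miRNAs would pass in the same way was not tested. miR-493-3p and miR-540-3p had a Pearson r of 0.86 (adjusted permutation p = 0.00187) and a Spearman rho of 0.82 (adjusted permutation p = 0.0146). Without the 2 rats farthest from the median of miR-493-3p, r was 0.81. This pair alone passed by both measures, and leaving out single libraries gave an r from 0.80 to 0.89.

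miR-493-3p and miR-370-3p had an r of 0.75 (adjusted permutation p = 0.0256) and a rho of 0.70 (adjusted permutation p = 0.0507), and r was 0.58 without the 2 farthest rats. The correlation of miR-770-3p with miR-370-3p was 0.66 (adjusted permutation p = 0.029; rho 0.60, adjusted permutation p = 0.0902) and with miR-493-3p 0.62 (adjusted permutation p = 0.029; rho 0.55, adjusted permutation p = 0.13), and without the 2 farthest rats these were 0.57 and 0.54. The abundant arms entered here are all named 3p except for miR-341, which has no arm in its name. Its strand lies in the second part of its hairpin, so 5p arms entered only in the pairs of arms of 1 precursor. Outside it, and with no test, miR-493-5p had an r of 0.59 with miR-370-3p, 0.57 with miR-770-3p and 0.53 with miR-341. With miR-493-3p, miR-341 had an r of 0.04 (adjusted permutation p = 0.881) and miR-337-3p one of -0.31 (adjusted permutation p = 0.472).

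For the arms of 1 hairpin, neither of the pairs tested passed. miR-770-5p and miR-770-3p had an r of -0.06 (adjusted permutation p = 0.881; rho -0.07, adjusted permutation p = 0.815; 0.20 without the 2 farthest rats). For miR-493-5p and miR-493-3p r was 0.16 (adjusted permutation p = 0.754; rho 0.22, adjusted permutation p = 0.684; 0.13 without the 2 farthest rats). The arms of miR-540 had an r of -0.43, the lowest of all member pairs, and those of miR-370 one of 0.23, both without a test and the former on few counts of miR-540-5p. Over all 45 pairs of the 10 members the median r was 0.08, with quartiles of -0.14 and 0.45, beside a median of 0.01 and quartiles of -0.22 and 0.24 over the 69378 pairs of all miRNAs tested. Single pairs ran from -0.43 to 0.86 among the members and from -0.91 to 0.95 among all miRNAs tested, so high values were not confined to members. The points of every such correlation share libraries and scaling. After removing group means, miR-370-3p had an r of 0.58 with the percentage of reads counted for a miRNA. With the percentage of too low an alignment quality it had an r of -0.50. These values were 0.39 and -0.33 for miR-770-3p, 0.31 and -0.14 for miR-493-3p, and 0.05 and 0.09 for miR-540-3p. The part of these library measures in the pairs was not tested. The count of 4 pairs was 1 with library size scaling alone and also 1 without any one of naive replicate 3 or 6 or bPYX+NT3 replicate 2, 3 or 4.

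**Figure D4:**
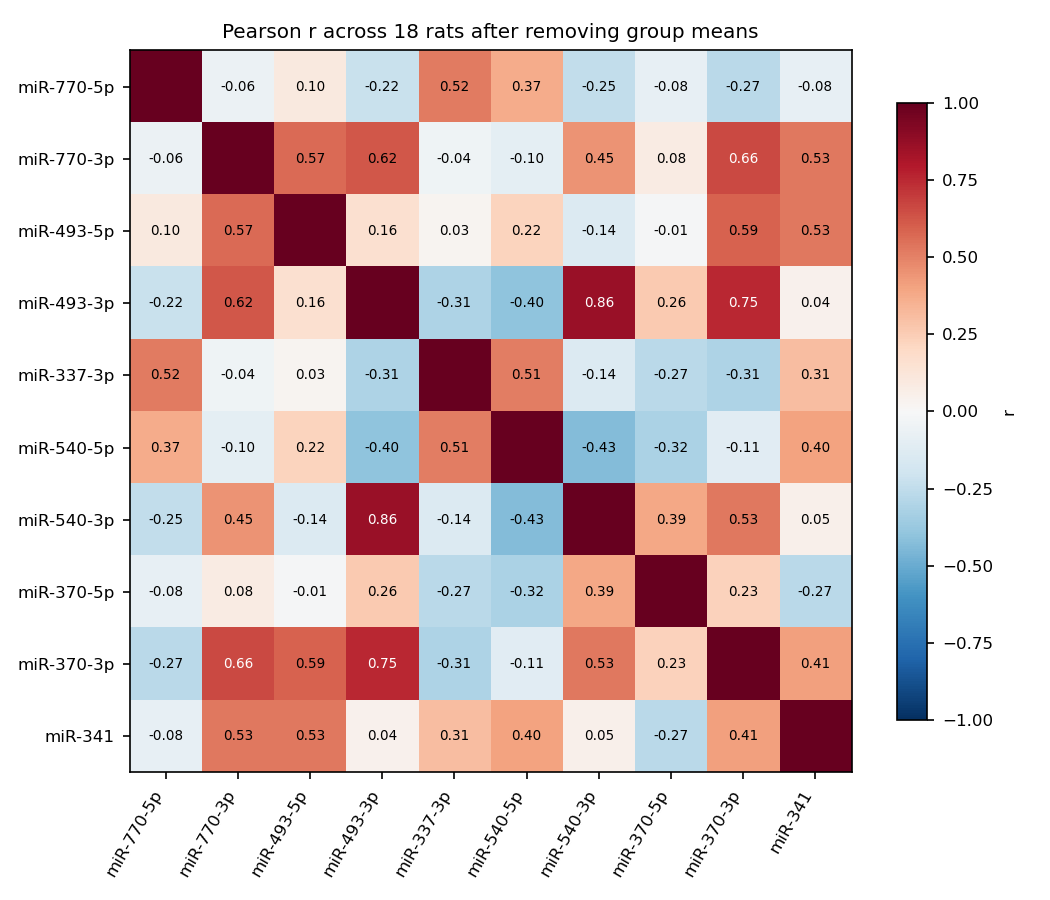
Pearson correlation of log2 CPM between the 10 miRNAs above the filter over 18 rats after removing group means, with blue negative and red positive. The highest values join miR-493-3p with miR-540-3p, 0.86, and with miR-370-3p, 0.75, whereas both arms of miR-770 have -0.06.

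In the levels themselves the relation was visible in the single rat with the lowest miR-493-3p. In bPYX+NT3 replicate 3, miR-493-3p was at 452 CPM and miR-540-3p at 50.7 CPM, the lowest of all 18 rats for both, and miR-370-3p was also lowest there, at 1146 CPM. miR-493-5p in the same rat was at 631 CPM, within the range of every group. miR-337-3p at 12.1 CPM and miR-540-5p at 6.15 CPM, both on few counts, were the highest of all 18 rats there. Without this rat the count of correlated pairs was 1 in place of 4.

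**Figure D5:**
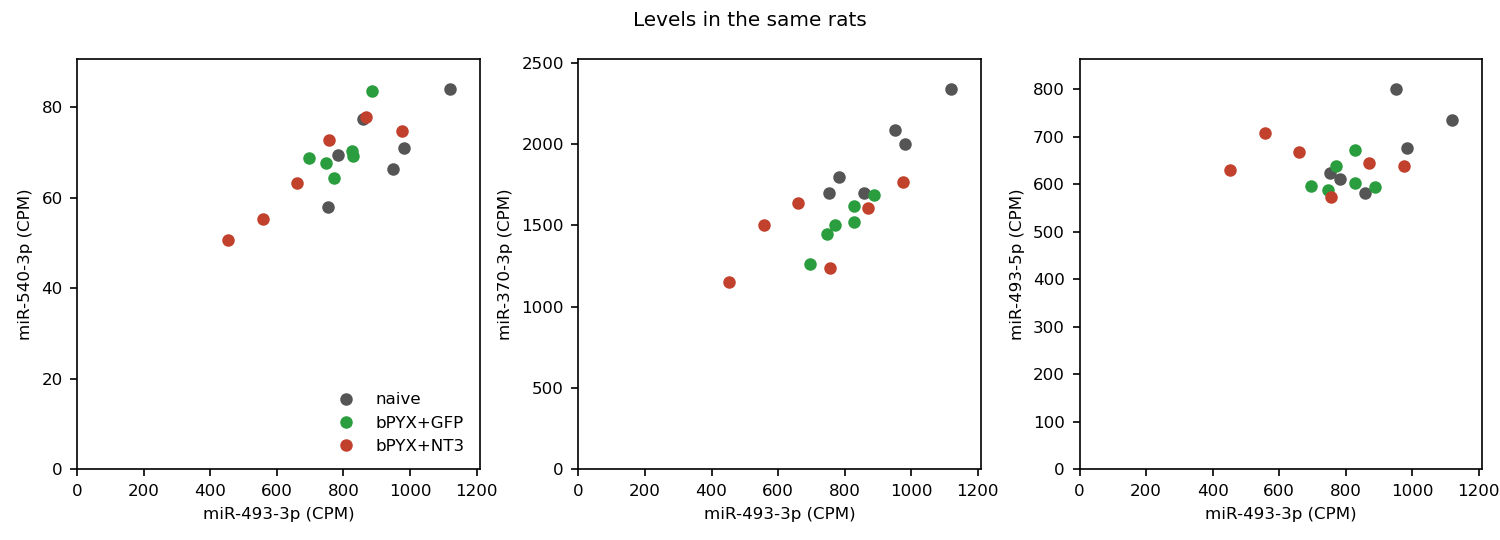
Levels (CPM on both axes) of miR-493-3p against miR-540-3p, miR-370-3p and its own partner arm miR-493-5p, 1 point per rat, coloured by group. The bPYX+NT3 rat at 452 CPM of miR-493-3p is the lowest in the first and second panels and lies among the others, at 631 CPM, in the panel of miR-493-5p.

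The log2 ratios of 5p to 3p counts were correlated in the same way between the 4 precursors with both arms above the filter, a step added after the values had been seen. By the adjusted permutation p, 0 of 6 pairs passed 0.05, and 1 had an unadjusted p under 0.05 by Pearson and by Spearman correlation alike. It joined miR-493 and miR-540, with an r of 0.62 (adjusted permutation p = 0.108), a rho of 0.59 (adjusted permutation p = 0.142) and an r of 0.51 without the 2 farthest rats.

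Members left aside, the 3 tested miRNAs whose levels most resembled the most abundant arm of each precursor, by Pearson r of log2 CPM after removing group means over the 18 rats, came from within and outside the locus. For miR-493-3p they were miR-204-5p at 0.92, miR-24-2-5p at 0.88 and miR-136-5p at 0.88. For miR-540-3p they were miR-455-5p at 0.86, miR-24-2-5p at 0.80 and miR-128-2-5p at 0.77, and for miR-370-3p miR-412-5p at 0.82, miR-381-3p at 0.81 and miR-216a-3p at 0.80. miR-136-5p, miR-412-5p and miR-381-3p belong to the same imprinted locus, and the others of these lists do not. For miR-770-3p they were miR-379-5p at 0.69, miR-144-3p at 0.66 and miR-411-3p at 0.63, and for miR-341 miR-323-3p at 0.76, miR-532-5p at 0.64 and miR-144-3p at 0.61. For miR-337-3p they were miR-665 at 0.68, miR-362-5p at 0.64 and miR-212-3p at 0.64. Here miR-379-5p, miR-411-3p, miR-323-3p and miR-665 belong to the locus, and miR-144-3p is a marker of blood.

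The other miRNAs of the locus were described by 3 lists. Of 5 miRNAs that neighbour the members (miR-673, miR-665 and miR-1188), all 5 were tested, and 1 was lower in bPYX+GFP than in naive rats at an unadjusted p under 0.05 by edgeR, with 0 in the other comparisons. Of 9 miRNAs antisense to Rtl1, 7 were tested, and 1 was higher in each comparison with naive, with 0 between the injured groups. Of 65 miRNAs of the cluster from miR-379 to miR-410, 49 were tested, of which 5 were higher and 4 lower in bPYX+GFP against naive, 3 higher and 1 lower in bPYX+NT3 against naive, and 1 higher and 2 lower between the injured groups. The backgrounds are the percentages given above for each comparison.

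At an adjusted p under 0.05 by edgeR there were 3 miRNAs in these lists, all in bPYX+GFP against naive rats and all from the cluster. miR-379-3p was higher, by 0.94 ± 0.13 on the log2 scale (SE, adjusted p = 0.00155 by edgeR), as was miR-496-3p, by 0.45 ± 0.11 (adjusted p = 0.0315 by edgeR). miR-381-3p was lower, with a value of -0.35 ± 0.07 (adjusted p = 0.0218 by edgeR). Both directions thus occurred within the cluster. Among the members they did so only at an unadjusted p under 0.05 by edgeR, since miR-370-3p alone, with a lower level, passed at an adjusted p. The median log2 fold change of the lists lay between -0.09 and 0.10 in the 3 comparisons. Their summed level was 24285 ± 1751, 23743 ± 1519 and 23590 ± 1961 CPM for the cluster and 13456 ± 862, 14307 ± 387 and 13983 ± 1108 CPM for the miRNAs antisense to Rtl1 in naive, bPYX+GFP and bPYX+NT3 rats. The members summed to 5418 ± 643, 4636 ± 274 and 4726 ± 465 CPM in the same order (SD, n = 6 per group).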

How the data were processed

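Total RNA of the pooled ganglia of each rat was made into small RNA libraries with a NEBNext kit and sequenced on an Illumina HiSeq. The authors trimmed adapters, aligned the reads with Bowtie2 to Rnor_5.0 and counted them with HTSeq, per the labels and the study's methods, so that the deposited values are raw counts per mature miRNA. The submitters' processing notes also name bcl2fastq 1.8.4. Versions of the other tools, the miRNA annotation and the strand setting of the counting are not given in the sources used here.

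The table's 5 rows of unassigned reads entered neither library sizes nor tests. With them a library came to 13.5 ± 1.75 M reads (SD, n = 18), of which 34.9 ± 1.68% were counted for a miRNA, 31.4% had too low an alignment quality, 27.2% were not aligned, 3.26% were ambiguous and 3.20% fell outside miRNAs. No molecular identifiers were stated, so PCR copies cannot be told from separate molecules and a limit from a count of 0 covers counting error alone. The chi-square between libraries of 1 group, per degree of freedom, was 40.4 or more, and none was treated as a copy.

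Groups were taken from the labels. Each comparison was fitted on its 12 libraries with edgeR 4.0.16 in R 4.3.3 (TMM scaling, quasi-likelihood F test, Benjamini-Hochberg adjustment over 373 miRNAs). CPM used TMM factors over all 18 libraries. Arm ratios were log2 of 5p over 3p counts with a pseudocount of 0.5, tested by sign flips over rats. Correlations used log2(CPM + 0.5) less the group mean and were tested by permuting rats within groups. Both used 100000 resamples in numpy 2.4.6. The tests were checked on simulated data. All p-values take the rat as the unit, so a difference, mean ratio or correlation is set against the variation between rats.

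The alternatives were DESeq2 size factors and Wald test (version 1.42.0), library size only, the likelihood ratio test, no filter or one of over 100 counts, a joint fit of the 3 groups, the replicate number as a block, a pseudocount of 1, Spearman correlation, and leaving out each library in turn. Members, lists and tests were chosen with earlier results of these data known, and the correlation of arm ratios between precursors was added after seeing the data. Named miRNAs were all members, the 3 most like each precursor's most abundant arm, those sharing a seed, and those of the locus lists with an adjusted p under 0.05. Gene order and sequences came from RefSeq tables of GRCr8, and none of their coordinates is given.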

Additional observations from a re-analysis of the deposited data

Results flagged for a closer look

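Samples far from the rest of their group were looked for in 42 groups of 6 rats over 14 measures of the members, where chance would give about 2.1 at 1 in 20, and 2 were found. miR-540-3p was at 83.6 CPM in bPYX+GFP replicate 6, and the nearest other rat of that group was at 70.3 CPM. miR-337-3p was at 12.1 CPM in bPYX+NT3 replicate 3, next to 7.66 CPM, on 57 counts.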

How the results depend on the processing

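Over the alternatives, 594 values of the 30 fold changes were computed, and 0 moved by more than 1 SD between rats of a group. Against the smaller SE of the fold change, 3 did: miR-770-5p without bPYX+GFP replicate 3, from 0.77 to 0.50 in bPYX+GFP against naive and from -0.13 to 0.13 between the injured groups, and miR-337-3p between the injured groups without bPYX+NT3 replicate 3, from 0.48 to 0.24. The sign changed in 40 values of 9 fold changes, none of them with an unadjusted p under 0.05 in the fit reported. miR-370-3p and miR-770-5p kept an unadjusted p under 0.05 against naive rats in both comparisons in all 20 alternatives. miR-341 in bPYX+GFP against naive lost it in 10 of 20, miR-493-3p in bPYX+NT3 against naive in 9 of 20, miR-337-3p there in 2 of 19, and miR-341 between the injured groups in 5 of 20.

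Leaving out single libraries gave 2 to 4 members called in either comparison with naive (2 in bPYX+NT3 without bPYX+NT3 replicate 3) and 0 to 2 between the injured groups. The same fits called 53 to 78, 32 to 68 and 24 to 54 of all 373 miRNAs in bPYX+GFP against naive, bPYX+NT3 against naive and between the injured groups. The count of members between the injured groups was 0 when bPYX+GFP replicate 1, 5 or 6 or bPYX+NT3 replicate 3 was dropped, and 2 when bPYX+NT3 replicate 1 or 4 was. With all 3 groups fitted together and with the replicate block it was 2, as miR-337-3p was added. Same-numbered rats did not clearly deviate together (r from -0.384 to 0.371). These values cannot show whether the numbers stand for a shared batch. With the replicate block, members called were 2 in bPYX+GFP and 4 in bPYX+NT3 against naive, beside 76 and 48 of all 373 miRNAs. The number of correlated pairs, 4, was 1 with library size only and 1 by Spearman p, and 1 to 5 when single libraries were left out. The adjusted call of miR-370-3p was also lost with 3 groups together and with the replicate block. The DESeq2 Wald test called 2 members at an adjusted p in that comparison, miR-370-3p and miR-770-5p, beside 23 of all 373 miRNAs, against 9 in the fit reported. The causes were not tested.

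Depth limits miR-337-3p and miR-540-5p, with at most 57 and 30 counts, and a filter of more than 100 counts leaves both out.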
